A study of Mus musculus with 2 samples.

Results

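The 35 genes described here encode the proteins that form and dissolve blood clots: the clotting factors, fibrinogen, their inhibitors and receptors, and the enzymes of fibrinolysis. They were chosen by name, as a gene module, and the rule used no measured value, but earlier results of these data were known. Liver RNA of C57B6J wild-type (WT) mice was compared with that of CREBH-Tg mice on the same strain background, which carry a transgene for active human CREBH, a liver-enriched transcription factor, overexpressed mainly in the liver. All mice ate the HFHS diet for 12 weeks, and no group on another diet was analysed here. The livers were pooled by genotype and each pool was hybridised to 1 Agilent array, so there were no replicates. The labels state neither the age of the mice, nor the number per pool, nor the promoter of the transgene. The probe named for mouse Creb3l3 had a log2 ratio of -0.0041, and whether it also detects the human cDNA was not examined, so the genotype labels were not checked. Differences are therefore given by size, with no test and no p-value, and cannot be set against the spread between animals.

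Clotting starts when factor VII in plasma meets tissue factor on cells outside the vessel, and it proceeds through a chain of proteases to thrombin, which turns fibrinogen into fibrin. A second entry, the contact system, runs through factors XII and XI. Plasmin, made from plasminogen, dissolves fibrin again. Hepatocytes secrete most of these plasma proteins, and several of the proteases need vitamin K for the carboxylation of their glutamate residues. Thrombomodulin, the endothelial protein C receptor and tissue factor sit instead on the surface of other cells.

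All 35 genes had at least 1 named probe, among 20660 genes with one, and 31 were well above background on both arrays, among 13881 genes. Signals are the log2 of the processed intensity minus that of the 75th percentile on the same array, an intensity of 333 for WT and 309 for CREBH-Tg. No spot was saturated. The error stated is the 95% range of spot noise, taken from the SD of log2 ratios between spots of the same probe, over 276 probes spotted at least 5 times. Genes were split by signal into 3 classes of equal size, where this range was 0.39 for the dimmest, 0.17 for the middle and 0.095 for the brightest. It leaves out differences between animals, pools, labelling reactions and hybridisations. Of the 31 measured genes, 25 lay in the brightest class, 4 in the middle and 2 in the dimmest. All 12 hepatocyte markers examined, among them Alb and Ttr, were well above background on both arrays.

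None of the 31 genes differed 2-fold or even 1.5-fold between the pools. Over all 13881 genes, 0.663% exceeded 2-fold on the higher side in CREBH-Tg and 0.67% on the lower side, and for 1.5-fold these shares were 2.33% and 2.23%. The log2 ratios of the 31 genes, CREBH-Tg over WT, ran from -0.34 for Plaur to 0.32 for Serpina10, with a median of 0.063. The median over all genes was 0.027, and over the brightest class 0.051. In all, 22 of the 31 lay above 0 and 9 below, a split that was 25 to 6 after scaling to the array median, 15 to 16 after quantile normalization and 14 to 17 after loess. The share of all genes above 0 moved too, from 56.2% in the values used to 73.4%, 52.0% and 51.4% under these settings, and that of the brightest class from 66.1% to 84.0%, 49.5% and 49.6%. By more than the spot noise range, 12 were higher and 5 lower, that is 38.7% and 16.1% of the 31, against a background of 21.1% and 13.4% of all genes. Among the 25 members in the brightest class, 12 were higher and 3 lower, where 36.1% and 15.5% of all genes in that class were. After scaling to the array median 21 members were higher and 1 was lower, and 64.5% of the brightest class was higher.

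**Figure D1:**
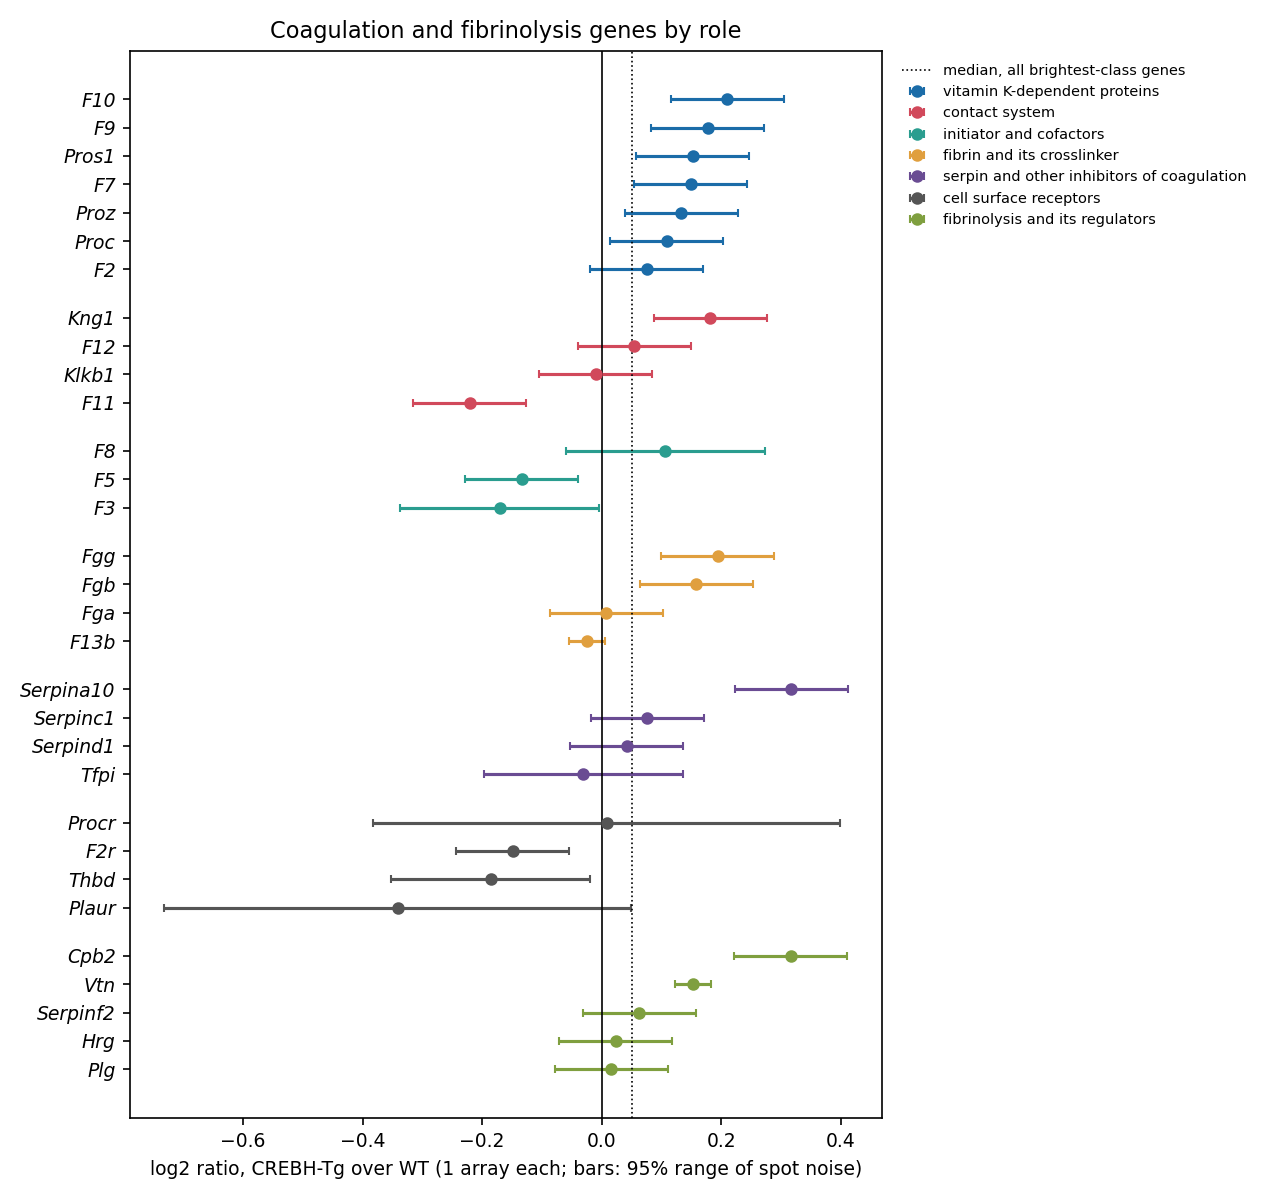
Log2 ratio of CREBH-Tg over WT (x axis) for each of the 31 measured genes (y axis), grouped by role; points are 1 array against 1 array, bars the 95% range of spot noise, and the dotted line the median of 0.051 over all genes of the brightest class. Vitamin K-dependent genes sit to the right of 0. F11, F5, F3, F2r, Thbd and Plaur sit to the left, as do Klkb1, F13b and Tfpi, which are close to 0. The bars of Vtn and F13b are narrower because each probe was spotted 10 times, whereas calls in the text use the range for a single spot.

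**Figure D2:**
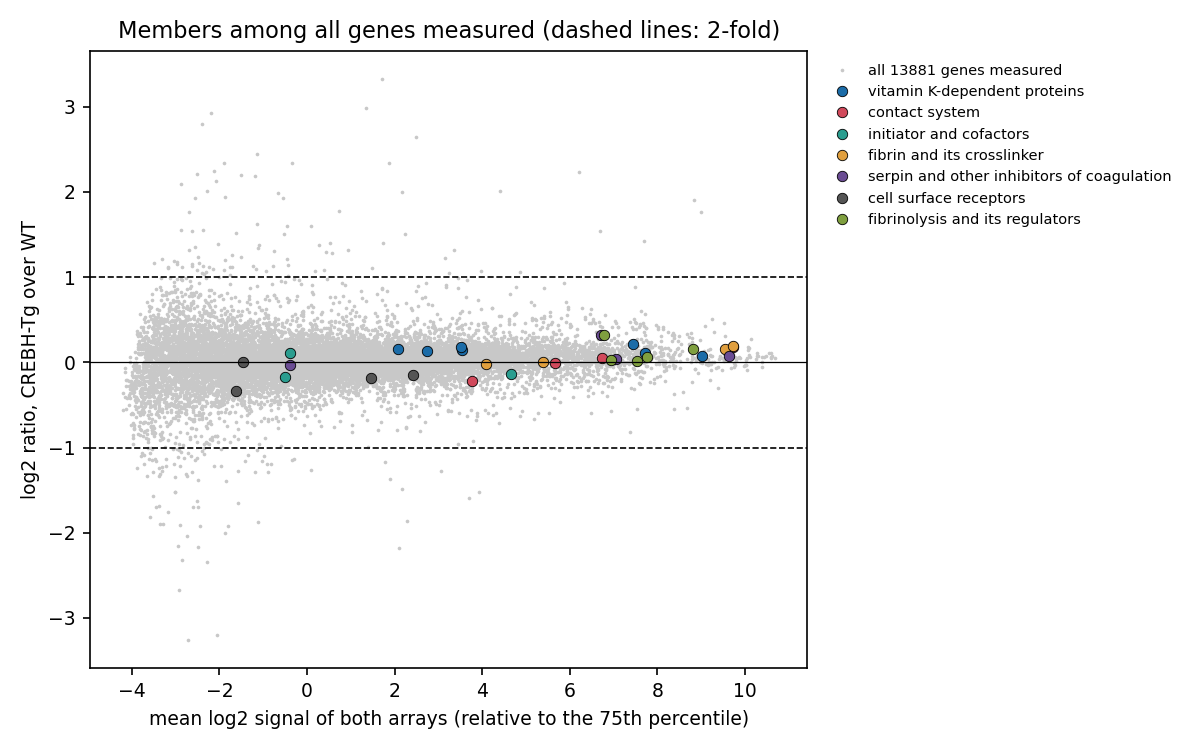
Log2 ratio of CREBH-Tg over WT (y axis) against the mean log2 signal of both arrays (x axis) for 13881 genes in grey, with the 31 members coloured by role and dashed lines at 2-fold. The members lie within the main cloud, between -0.34 and 0.32, and most of them at its bright end.

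The members farthest above 0 were Serpina10 and Cpb2. Serpina10 encodes the protein Z-dependent inhibitor of factor Xa, and its log2 signal was 6.56 in WT and 6.88 in CREBH-Tg, a 1.25-fold difference. A second, dimmer Serpina10 probe gave 3.11 and 3.47, a log2 ratio of 0.36 beside the 0.32 of the first. Cpb2 encodes the carboxypeptidase TAFI, which trims from fibrin the lysines that plasminogen binds and so slows its breakdown, and its single probe read 6.63 in WT and 6.95 in CREBH-Tg, also 1.25-fold higher. Both log2 ratios of 0.32 were above those of 94.6% of genes in the brightest class.

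On the other side, F11 was the bright member farthest below 0. It encodes factor XI, the protease that activates factor IX, and its log2 signal was 3.88 in WT and 3.66 in CREBH-Tg, a log2 ratio of -0.22 or 1.17-fold lower. Only 5.32% of genes in the brightest class had a log2 ratio as low or lower. Across the 10 ways of processing the arrays, Serpina10, Cpb2 and F9 were above the spot noise range and F11 was below it in all of them. These ways are not independent checks. Other scaling points and the authors' value table shift every gene alike, and filters on dim probes leave bright genes unchanged. Averaging over probes cannot change Cpb2, F9 or F11, which have 1 probe each. The noise range was that of the values used throughout.

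The promoter windows of Cpb2 and F11 are shown because both genes lie near the ends of the range and CREBH belongs to a family of factors that bind cAMP response elements. RefSeq's table for GRCm38.p6 held 28 of the 35 genes, and the sequences are the 250 bases before each annotated start, written 5′ to 3′ on the gene's strand. Serpina10, the member farthest above 0, was not in that table, nor was Thbd, so neither promoter was searched. The next on each side with a window, F10 and F2r, are not printed, and matched none of the motifs below. Cpb2 is on the plus strand at chr14:75242037-75242286, and F11 on the minus strand at chr8:45262032-45262281. Capitals mark matches, on either strand, to the motifs searched.

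Cpb2: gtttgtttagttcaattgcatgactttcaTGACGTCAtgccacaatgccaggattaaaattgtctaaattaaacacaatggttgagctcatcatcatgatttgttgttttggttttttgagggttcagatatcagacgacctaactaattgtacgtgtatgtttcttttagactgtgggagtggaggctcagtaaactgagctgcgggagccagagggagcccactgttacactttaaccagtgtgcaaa

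F11: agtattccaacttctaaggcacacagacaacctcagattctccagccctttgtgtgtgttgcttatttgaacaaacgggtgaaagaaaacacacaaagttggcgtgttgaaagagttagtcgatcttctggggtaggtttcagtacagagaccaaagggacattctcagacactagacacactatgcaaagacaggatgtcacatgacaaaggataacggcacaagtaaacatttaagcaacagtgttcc

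Cpb2 held the whole palindromic cAMP response element TGACGTCA, beginning 221 bases before the start, and was the only one of the 28 genes that did. Of 32851 promoter windows of 300 bases over all genes, 1.79% held this element. The shorter core TGACGT, which overlaps it, was again found in Cpb2 alone, and in 7.51% of all windows. The related TGACGTG was in none of the 28 genes and in 2.01% of all windows. GTTAAT, part of the element bound by HNF1, was in 6 of the 28 genes (F2, Fga, Fgb, F13b, Proz and Vtn), or 21.4%. These were 6 of the 30 windows of the 28 genes, and 7.10% of all windows held it. The F2 match lies after the start, at base 9 of the transcript. The HNF4 element CAAAGTCCA was in none and in 0.475% of all windows, and TTGCGCAA, a palindrome bound by C/EBP, in Serpina5 and in 0.183%. The F11 window matched none of these motifs. A match describes the letters only, and binding was not measured.

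The 7 genes of vitamin K-dependent proteins all lay above 0, and 6 of them by more than the spot noise range of 0.095. All 7 are in the brightest class, where 66.1% of all genes lay above 0 and 36.1% were higher by more than that range. With the mean over probes these counts were 6 and 5, since F10 then lay at -0.23. Their median log2 ratio was 0.15, beside 0.051 for all genes of the same signal class. F9, which encodes factor IX, read 3.44 in WT and 3.61 in CREBH-Tg, a log2 ratio of 0.18. F7, factor VII, read 3.47 and 3.62, a ratio of 0.15, and a second probe gave 0.18. Both genes were therefore higher on the CREBH-Tg array by about the same small amount, near 1.1-fold.

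The genes of anticoagulant proteins in this group were higher by similar amounts. Pros1, the protein S that serves activated protein C as a cofactor, read 1.998 in WT and 2.15 in CREBH-Tg, a log2 ratio of 0.15. Proz, the protein Z that brings the Serpina10 product to factor Xa, had 2.68 and 2.81, a ratio of 0.13. Proc, the zymogen whose activated form shuts off factors V and VIII, had 7.66 and 7.76, a ratio of 0.11. The Proc ratio was 0.0047 after quantile normalization, 0.014 after loess and 0.048 in the authors' value table, all within spot noise. F2, prothrombin itself, was the member of the group within spot noise, at 8.99 and 9.07 and a ratio of 0.076. The group's median was above that of the brightest class by 0.066 to 0.11 over the 10 ways of processing, with 6 or 7 of the genes above 0. Ways that shift every gene alike or only filter dim probes could not change this gap, which was 0.098 under them. It was 0.11 after quantile normalization, 0.10 after loess, 0.066 under normexp and 0.083 with the mean over probes. How many passed the spot noise range varied more, from 2 of 7 in the authors' value table to 7 of 7 after scaling to the array median.

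F10, which encodes factor X, was read by probes that went opposite ways. The brightest, matched to RefSeq transcript NM_007972, read 7.35 in WT and 7.56 in CREBH-Tg, a log2 ratio of 0.21. The other, matched to NM_001242368, had 5.43 and 4.76, a ratio of -0.67 or well beyond the spot noise of 0.095. Normexp background correction left these at 0.20 and -0.69. The mean over both probes was -0.23, so the sign for F10 as a gene depends on which probe is taken. Of 3376 genes with more than 1 measured probe, 66 (1.95%) had probes at least as far apart, and the median distance was 0.13. Where the probes lie in the gene was not analysed here.

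**Figure D3:**
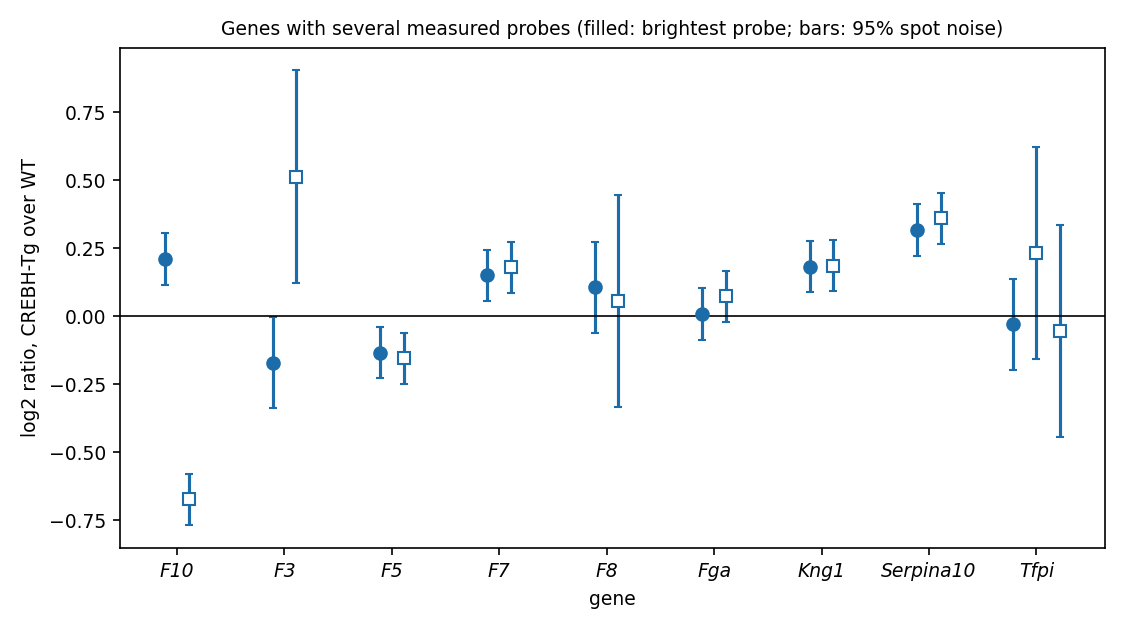
Log2 ratio of CREBH-Tg over WT (y axis) for every measured probe of the 9 members that have more than 1 (x axis); filled points are the brightest probe, open squares the others, and bars the 95% range of spot noise. The probes of F10, F3 and Tfpi lie on both sides of 0, and those of the other 6 genes on the same side.

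In the values used, the fibrinogen genes Fgg and Fgb were beyond spot noise and Fga was within it. Fgg, the gamma chain, read 9.64 in WT and 9.84 in CREBH-Tg, a log2 ratio of 0.19. Fgb, the beta chain, had 9.48 and 9.64, a ratio of 0.16. Fga, the alpha chain, had 5.39 and 5.40 on its brightest probe, a ratio of 0.0080, and 0.073 on its other probe, both within spot noise. Fga lies between Fgg and Fgb with no coding gene between them in the RefSeq table. After loess the ratios were 0.079 for Fgg, 0.045 for Fgb and -0.061 for Fga, all within the spot noise of 0.095. After quantile normalization they were 0.12, 0.078 and -0.074, and only Fgg was beyond it. After scaling to the array median all were beyond it, at 0.28, 0.25 and 0.097.

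Factor XIII, which crosslinks fibrin, has a catalytic A subunit and a carrier B subunit that the liver makes. F13b, the B subunit, was spotted 10 times on each array, which gives the arrays' own error for this gene. The spots read from 4.04 to 4.17 with a median of 4.10 in WT, and from 4.03 to 4.14 with a median of 4.08 in CREBH-Tg. The spots of both arrays overlapped over most of their range, and 4 of the 10 paired spots were higher in CREBH-Tg. The mean log2 ratio was -0.024 ± 0.062 (SD over 10 spots of 1 array pair).

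F13a1, the A subunit, is made by macrophages and megakaryocytes rather than hepatocytes. For one of its probes the CREBH-Tg array alone gave a reading well above background, at a processed intensity of 25.0 against 8.59 in WT. Set against the lowest WT signal well above background, it was 1.42-fold higher in CREBH-Tg, an approximate figure, since that lowest signal is not a strict limit. This is a log2 ratio of 0.50, and under normexp the ratio of this dim probe was smaller, at 0.38. The other F13a1 probe did not stand well above background in either pool. Of 10 platelet and megakaryocyte markers, 6 were measured and all 6 lay above 0 (median log2 ratio 0.21), Ppbp at 0.82 and Pf4 at 0.56, and their summed signal was 1.35 on the log2 scale in WT and 1.64 in CREBH-Tg. Only Ppbp and Pf4 were beyond spot noise. Itga2b, Gp1ba, Gp5 and Gp9 were not well above background on both arrays, and 2 of them were so in CREBH-Tg alone and 0 in WT alone. Of 11 macrophage markers measured, 5 lay above 0 and 6 below, with a median of -0.041 and summed log2 signals of 7.613 and 7.503. Beyond spot noise, 1 of them was higher and 2 were lower. What part either cell type has in the F13a1 reading was not tested. In whole liver, fewer cells of a type and less RNA per cell cannot be told apart.

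Vtn, by contrast, was separated at the level of spots. It encodes vitronectin, an adhesive glycoprotein of plasma and matrix, and its probe was also spotted 10 times. The spots ran from 8.69 to 8.80 with a median of 8.75 in WT, and from 8.87 to 8.95 with a median of 8.88 in CREBH-Tg. No spot of one array overlapped the range of the other, and all 10 pairs were higher in CREBH-Tg. The mean log2 ratio was 0.15 ± 0.034 (SD over 10 spots of 1 array pair), or 1.11-fold. Repeated spots measure the same pool on the same array, and the ratio was 0.033 after quantile normalization and 0.047 after loess, so its size rests largely on how the arrays are scaled.

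**Figure D4:**
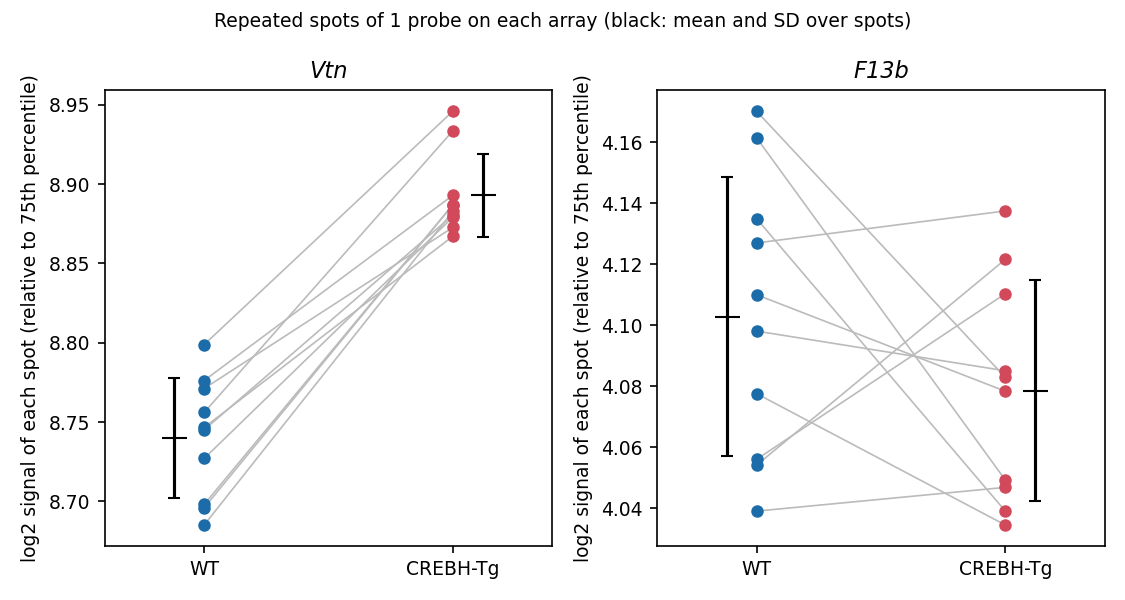
Log2 signal (y axis) of each of the 10 spots of the Vtn probe (left) and the F13b probe (right) on the WT and CREBH-Tg arrays (x axis); grey lines join spots at the same position, and black marks are the mean and SD over spots. The Vtn spots do not overlap between arrays, from 8.69 to 8.80 against 8.87 to 8.95, while the F13b spots do.

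Among contact system genes, Kng1 and F11 lay on opposite sides. Kng1, whose product is the kininogen that carries prekallikrein and factor XI, read 9.64 in WT and 9.82 in CREBH-Tg, a log2 ratio of 0.18. A probe for another Kng1 transcript read 6.08 and 6.27, a ratio of 0.19, so both probes were higher by nearly the same amount. After loess Kng1 was within spot noise, at 0.066. Its close paralogue Kng2 had a ratio of 0.19, and probes of such similar genes can cross-hybridise. F12, factor XII, read 6.70 and 6.76, a ratio of 0.055. Klkb1, plasma prekallikrein, read 5.67 and 5.66, a ratio of -0.010. F12 and Klkb1 were within spot noise in the values used. F12 was beyond it after scaling to the array median, at 0.14, and Klkb1 after quantile normalization, at -0.11. Klkb1 is the coding gene next to F11, whose ratio was -0.22, so these neighbours differed by more than the spot noise of either.

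The initiator and the cofactors were near or below 0. F5, the cofactor of factor Xa, read 4.73 in WT and 4.59 in CREBH-Tg, a log2 ratio of -0.13, and a second probe gave -0.15. Its ratio was below 0 in all 10 ways of processing, from -0.20 to -0.045, the last being within spot noise after scaling to the array median. F8, the cofactor of factor IXa and largely a product of endothelial cells, read -0.45 and -0.34, a ratio of 0.11 within the spot noise of 0.17. After scaling to the array median the F8 ratio was 0.20, beyond that range. F3, tissue factor, read -0.42 and -0.59 on its brightest probe, a ratio of -0.17 just outside the spot noise of 0.17. A much dimmer F3 probe read -3.78 and -3.27, a ratio of 0.51 that normexp reduced to 0.064, so no direction can be given for F3.

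The serpins that block thrombin differed little. Serpinc1, antithrombin, read 9.59 in WT and 9.67 in CREBH-Tg, a log2 ratio of 0.077. Serpind1, heparin cofactor II, read 7.05 and 7.09, a ratio of 0.042. Neither passed the spot noise of 0.095, and both lay below 0 after loess, at -0.038 and -0.046, but above the noise range after scaling to the array median, at 0.17 and 0.13. Tfpi, the inhibitor of factor VIIa with tissue factor, read -0.37 and -0.40 on its brightest probe, a ratio of -0.030. A second Tfpi probe for the same transcript gave -0.054, and one for another transcript 0.23, each within the spot noise of 0.39 for its signal. Serpina5, the protein C inhibitor, did not stand well above background in either pool, at intensities of 4.68 and 4.25.

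Of the 4 cell surface receptors, 3 lay below 0. Thbd, thrombomodulin, which turns thrombin towards activating protein C, read 1.55 in WT and 1.37 in CREBH-Tg, a log2 ratio of -0.19 beyond the spot noise of 0.17. F2r, the thrombin receptor PAR1, read 2.49 and 2.35, a ratio of -0.15 beyond the 0.095 of its class. Plaur, the urokinase receptor, read -1.44 and -1.78, and its ratio of -0.34, the lowest of all members, was within the 0.39 of the dimmest class. In the authors' value table the Plaur ratio was -0.40, just beyond that range. Procr, the endothelial protein C receptor, read -1.46 and -1.45, a ratio of 0.0087. The ratios of Thbd and F2r were below 0 in all 10 ways of processing. That of Plaur was below 0 in all except the stricter filter on dim probes, which left this gene out. After scaling to the array median the ratios of Thbd and F2r were within spot noise, at -0.097 and -0.059, and so was that of Thbd under normexp, at -0.15.

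These receptors are made largely outside hepatocytes, so cell type markers are given beside them. Of 12 liver endothelial markers measured, 10 lay above 0 and 2 below, with a median log2 ratio of 0.074 and summed log2 signals of 7.02 (WT) and 7.14 (CREBH-Tg). Of 11 stellate cell markers, 9 lay above 0, with a median of 0.20 and sums of 6.28 and 6.35. Of 6 cholangiocyte markers measured, 5 lay below 0, with a median of -0.14 and sums of 1.24 and 0.93. Hepatocyte markers had a median of 0.065 and sums of 12.8 and 12.9. Beyond spot noise, 2 endothelial markers were higher and 1 lower, and 4 stellate cell markers were higher and 0 lower. For cholangiocytes 0 were higher and 2 lower, and for hepatocytes 3 were higher and 3 lower. Of all genes, 21.1% were higher and 13.4% lower. None of the marker lists moved 2-fold, and their part in the receptor values was not tested.

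In fibrinolysis, the measured genes other than Cpb2 and Vtn were within spot noise. Plg, plasminogen, read 7.53 in WT and 7.54 in CREBH-Tg, a log2 ratio of 0.016. Serpinf2, the antiplasmin, read 7.73 and 7.79, a ratio of 0.063. Hrg, the histidine-rich glycoprotein that binds plasminogen and heparin, read 6.94 and 6.97, a ratio of 0.023. All 5 measured genes of this group lay above 0, but Plg, Serpinf2 and Hrg lay below it after loess, at -0.076, -0.032 and -0.063. After scaling to the array median these 3 passed the noise range on the higher side, at 0.11, 0.15 and 0.11. The plasminogen activators Plat and Plau did not stand well above background in either pool, with intensities of 7.83 and 7.68 for Plat and 7.38 and 3.24 for Plau.

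Other genes of the pathway were described from a list of 48, of which 40 were measured. By more than the spot noise range, 15 were higher and 7 lower in CREBH-Tg, or 37.5% and 17.5%, against 21.1% and 13.4% of all genes. Among the 31 of them in the brightest class 14 were higher and 3 lower, beside 36.1% and 15.5% of that class. The median log2 ratio of the 40 was 0.083. None was 2-fold higher and 2 were 2-fold lower, where 0.663% and 0.67% of all genes were. Serpine2, protease nexin, which blocks thrombin at cell surfaces, was one of these, reading -1.53 and -2.74 and a ratio of -1.21, or -0.68 under normexp, being dim. Chosen after their values were seen, Fgl1 (0.89), Gas6 (0.80) and Anxa2 (0.76) were the highest of the list and in the brightest class. Fgl1 encodes a fibrinogen-like protein that hepatocytes secrete, Gas6 a vitamin K-dependent ligand of TAM receptors, and Anxa2 a surface receptor for plasminogen and its activator. These 3 lay farther from 0 than any of the 31 members.

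The list holds enzymes of the vitamin K cycle, which serves the carboxylation of 7 of the members. Vkorc1, the reductase that warfarin blocks, read 6.94 in WT and 7.20 in CREBH-Tg, a log2 ratio of 0.26. Vkorc1l1, its paralogue, read 0.65 and 0.81, a ratio of 0.16 within the spot noise of 0.17. Ggcx, the carboxylase itself, read 1.15 and 0.97, a ratio of -0.19, just beyond its spot noise of 0.17 but within it after scaling to the array median, at -0.098, and under normexp, at -0.16. The genes of this paragraph were named after their values were seen. Lman1 and Mcfd2, the cargo receptor that carries factors V and VIII out of the endoplasmic reticulum, were within spot noise at 0.070 and 0.045. Vwf, the carrier of factor VIII in plasma and an endothelial product, read 0.85 and 1.13, a ratio of 0.28.

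**Figure D5:**
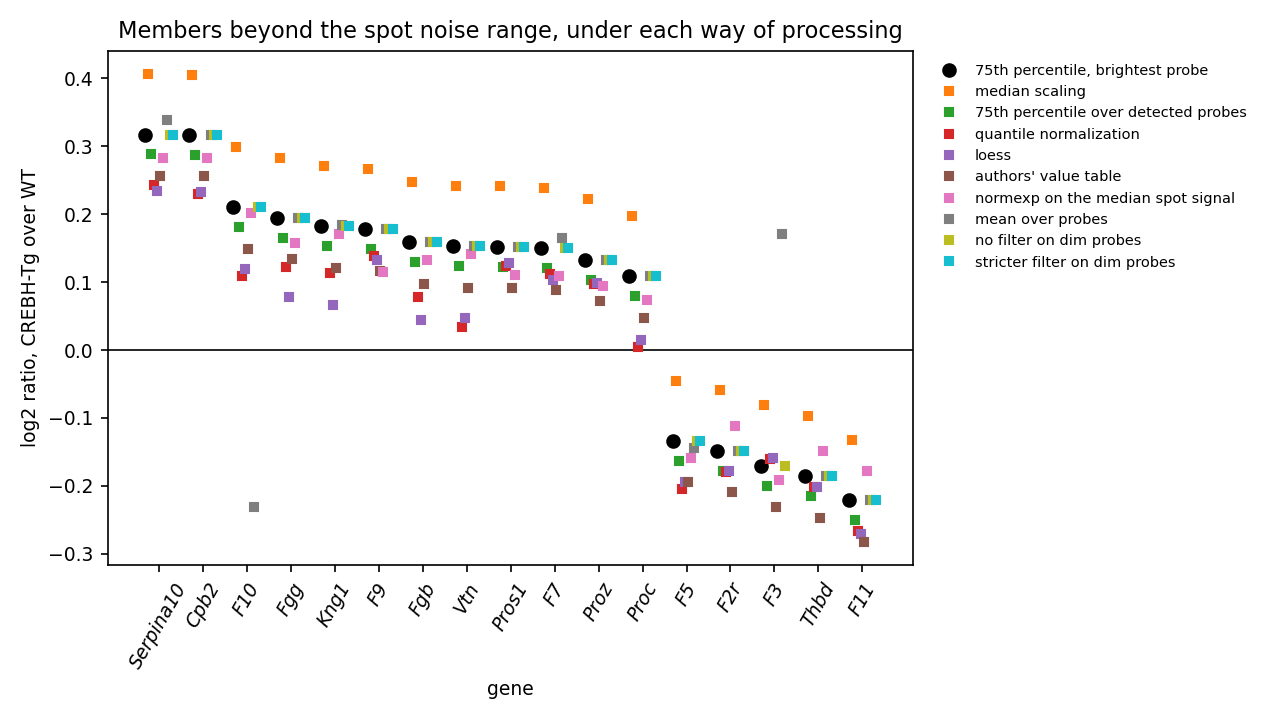
Log2 ratio of CREBH-Tg over WT (y axis) for the 17 members beyond the spot noise range (x axis), under each of 10 ways of processing the arrays; black circles are the values used in the text. Of the 12 genes that were higher, all except F10 stayed above 0 throughout, and of the 5 that were lower, all except F3 stayed below, the exceptions being the mean over probes. F3 has no point under the stricter filter on dim probes, which left it out.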

How the data were processed

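Each genotype was 1 pooled liver sample on 1 single-colour Agilent array, and the labels do not say how many mice each pool holds. Per the file headers, the deposited processed intensity comes from Agilent Feature Extraction 10.10.1.1, background-subtracted within each array, with probes designed on mm9. The authors' value table holds the same intensity times 1 constant per array (2.59 for WT, 2.68 for CREBH-Tg). Here log2 intensities were scaled to each array's 75th percentile, control and outlier spots were left out (300, none of a member), and spots of a probe were averaged. A probe was measured if more than 50% of its spots on each array exceeded background clearly (gIsWellAboveBG). A gene's value is that of its brightest measured probe. Probes were named through RefSeq transcript accessions (27233 of 55677 probes). All members were named. In the wider pathway list, members 2-fold apart were to be named, and 1 of these is not reported here. The members, lists and settings were chosen with earlier results of these data known. The gene summary, the 2-fold count and the noise estimate were tested on simulated spots with known ratios. Scaling, background correction, normalization, detection and the motif search were not tested in this way. Software was Python 3.11.15, numpy 2.4.6, pandas 2.3.3, matplotlib 3.10.9, R 4.3.3 and limma 3.58.1.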

Additional observations from a re-analysis of the deposited data

How the results depend on the processing

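No member reached 2-fold in 8 of the 9 other ways of processing. With no filter on dim probes, 1 member was 2-fold higher (F13a1) and 1 lower (Plau), both among the 4 genes otherwise not measured on both arrays. At 1.5-fold and at 3-fold the count was 0 in both directions. The median of the members ran from -0.029 to 0.15 and that of the brightest class from -0.0096 to 0.14. The number above 0 was 14 after loess against 22 in the values used. Averaging a gene's probes turned F10 to -0.23 and F3 to 0.17. Of the 14 members within spot noise, 12 changed sign under at least 1 setting. Members beyond spot noise numbered 7 to 21 on the higher side and 1 to 6 on the lower, the extremes of 21 and 1 after scaling to the array median. Normexp was run on the median spot signal, the one these files hold. No paired analysis was possible because each genotype has 1 array, and no array could be left out. With 1 array per genotype the spread between animals is unknown, and the scaling moved bright members too, Vtn from 0.033 to 0.24 and Proc from 0.0047 to 0.20.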
